A study of Mus musculus with 16 samples.

Results

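MyoD binding was set beside H3K27 acetylation in the control cells of a chromatin immunoprecipitation sequencing (ChIP-seq) study of mouse muscle stem cells. The members were the genomic regions with a peak in both control libraries of an antibody: 13755 MyoD regions, out of 24264 MyoD regions seen in any library of the series, and 34072 H3K27ac regions, called acetylated regions here, out of 59960. Peaks of the 2 control libraries were merged where they overlapped or touched, and a merged region was kept if both libraries had a peak in it. This kept 64.3% of the 21377 merged MyoD regions and 61.7% of the 55184 merged H3K27ac regions of the controls.

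The cells were satellite cells of C57BL/6 mice, taken from hindlimb muscle and grown in F10 medium with horse serum and antibiotics; the age of the animals, and whether libraries came from separate animals or cultures, are not stated. The labels call 4 ChIP libraries control (MyoD 1 and 2, H3K27ac 1 and 2) and 4 LncMyoD-KD, a knockdown of the long noncoding RNA LncMyoD. All samples carry the same treatment text, 48 h of siRNA against LncMyoD, so control status rests on the titles and the genotype labels; no source used here says which siRNA went into control cells. Chromatin was sheared and bound to antibody, and the bound DNA was tagmented, that is, cut and tagged by a transposase. The 8 input libraries of the 16 samples were not analysed here. Spread between the 2 libraries of a group may be technical, and p-values measure only that spread.

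MyoD is a basic helix-loop-helix transcription factor that binds, as a dimer with E proteins, to E-boxes, short DNA words of the form CANNTG, and turns on the skeletal muscle programme. Activated satellite cells, or myoblasts, express it before they fuse into fibres. H3K27ac is laid down on nucleosomes by p300 and CBP, acetyltransferases that MyoD can bring to DNA, and marks active promoters and enhancers. A factor bound at the nucleosome-poor centre of an active element is therefore usually seen between acetylated nucleosomes on its sides.

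The control lists held 17818 and 17649 MyoD peaks, with median widths of 347 and 353 bp, and 46259 and 53048 H3K27ac peaks, with median widths of 626 and 562 bp. Read depth is unknown, since the lists carry no read counts, and RNA was not measured. Of the satellite cell and myoblast markers, 10 of 10 had an acetylated region within 1 kb of a gene start, against 47.5% of all 21631 genes. The same held for 3 of 10 fibro-adipogenic, 3 of 10 Schwann and neural, 2 of 10 smooth muscle and pericyte, 1 of 10 endothelial and 1 of 10 immune markers. Acetylation at the starts of the defining markers Pdgfra, Sox10, Pecam1, Cdh5, Ptprc and Myh11, chosen for naming after their values were seen, was not called in both libraries.

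The promoters of 4 genes show the sequence near MyoD summits at gene starts. They are those of the list genes named by rule whose promoter window, 250 bases before to 50 from the start on, held the MyoD summits of both controls. Another 5 list genes, Mybpc1, Chrnb1, Chrng, Des and Musk, also had both summits there and are not printed; each of them held a CAGCTG or CAGGTG before the start. Each line holds the 250 bases before the gene start, 5′ to 3′ on the gene's strand, with every CANNTG in capitals (RefSeq sequence, GRCm38.p6, the assembly of mm10). Tpm2 encodes a tropomyosin of the thin filament (chr4:43523555-43523804, minus strand), Chrna1 the α subunit of the muscle acetylcholine receptor (chr2:73580339-73580588, minus strand), Myog the differentiation factor myogenin (chr1:134289754-134290003, plus strand) and Met the receptor of hepatocyte growth factor (chr6:17463707-17463956, plus strand).
Tpm2: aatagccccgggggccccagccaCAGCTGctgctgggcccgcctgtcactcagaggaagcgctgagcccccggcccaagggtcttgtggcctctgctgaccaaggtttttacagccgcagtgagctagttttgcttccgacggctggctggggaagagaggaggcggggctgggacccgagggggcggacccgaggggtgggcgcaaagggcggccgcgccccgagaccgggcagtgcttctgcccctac
Chrna1: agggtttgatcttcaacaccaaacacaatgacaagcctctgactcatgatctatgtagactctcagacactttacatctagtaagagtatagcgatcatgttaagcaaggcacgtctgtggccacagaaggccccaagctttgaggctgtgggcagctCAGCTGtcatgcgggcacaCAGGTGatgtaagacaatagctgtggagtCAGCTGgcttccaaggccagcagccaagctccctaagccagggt
Myog: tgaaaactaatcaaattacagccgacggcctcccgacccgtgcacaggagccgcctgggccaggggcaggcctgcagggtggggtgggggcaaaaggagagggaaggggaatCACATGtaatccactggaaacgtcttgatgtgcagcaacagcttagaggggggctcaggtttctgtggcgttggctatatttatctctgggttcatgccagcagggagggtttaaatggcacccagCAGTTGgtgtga
Met: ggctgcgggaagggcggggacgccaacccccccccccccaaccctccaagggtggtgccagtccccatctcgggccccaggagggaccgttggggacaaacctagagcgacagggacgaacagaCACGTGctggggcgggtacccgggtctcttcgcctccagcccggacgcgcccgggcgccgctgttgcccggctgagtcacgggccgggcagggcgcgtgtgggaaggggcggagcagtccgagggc
Chrna1 held 3 E-box words here, of which 2 were CAGCTG and 1 CAGGTG, the words most often linked to MyoD. The Tpm2 promoter held 1, a CAGCTG. Neither CAGCTG nor CAGGTG was in the stretches of Myog and Met, where the words were CACATG and CAGTTG, and CACGTG, respectively. At the Tpm2 start the MyoD fold enrichment, the authors' ratio of ChIP signal to background at a peak's summit, was 22.5 in control 1 and 21.2 in control 2, with H3K27ac folds of 10.8 and 10.9. At Chrna1 the MyoD folds were 20.5 and 19.5 and the H3K27ac folds 24.9 and 29.9. Myog had MyoD folds of 16.9 and 11.6 and H3K27ac folds of 10.6 and 9.79. The MyoD peak at the Met start was low, at 4.30 and 4.64, in a region with H3K27ac folds of 16.7 and 17.8; its summit in control 1 lay 4 bases past the start and so outside the printed stretch. Folds serve here to rank regions within a list, and those of MyoD and H3K27ac are not on a common scale.

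Most MyoD regions lay in acetylated chromatin, while most acetylated regions held no MyoD. Of the 13755 MyoD regions, 10485 (76.2%, 95% exact Clopper-Pearson interval 75.5 to 76.9) shared at least 1 base with an acetylated region and are called co-occupied. A further 722 (5.25%) overlapped an H3K27ac peak of a single control library, and 2548 (18.5%, 17.9 to 19.2) overlapped none and are called MyoD-alone. In the other direction, 9913 of 34072 acetylated regions held MyoD (29.1%, 28.6 to 29.6), 869 held 2 or more MyoD regions and 154 held 3 or more. Such intervals cover counting error over regions only. Taken list by list, 69.3% of the peaks of MyoD control 1 and 69.0% of those of MyoD control 2 overlapped a peak of H3K27ac control 1. With H3K27ac control 2 the shares were 71.2% and 70.8%. The 4 pairs of libraries thus differed by little more than 2 percentage points. Both antibodies were measured in different libraries, so an overlap does not show that MyoD and the acetyl mark sat on the same DNA molecule.

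The share that was co-occupied rose with the strength of the MyoD peak. When the MyoD regions were ranked by their mean fold and divided into 5 equal classes of 2751 regions, the co-occupied share was 59.5% in the lowest class, then 68.9%, 75.4% and 85.0%, and 92.4% in the highest. Counted against each H3K27ac control separately, it went from 61.1% to 92.9% with control 1 and from 61.7% to 93.8% with control 2. Regions away from gene starts went from 55.6% to 92.2%, and those within 1 kb of a start from 81.9% to 93.7%, a narrower range. Co-occupied regions had median MyoD folds of 7.93 and 7.95 in the 2 MyoD controls, regions with H3K27ac of a single library 6.61 and 6.62, and MyoD-alone regions 5.95 and 5.96. The order of the 3 classes was the same in both libraries. Median widths followed the same order, at 462 bp, 404.5 bp and 376.5 bp.

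Acetylated regions showed the matching gradient. Ranked by H3K27ac fold, 12.9% of the lowest of 5 equal classes held MyoD, then 20.6%, 26.6% and 33.6%, and 51.8% of the highest. Away from gene starts the range ran from 13.8% to 70.0%, and near starts from 6.94% to 31.9%. Acetylated regions without MyoD had median H3K27ac folds of 5.21 and 5.92 in controls 1 and 2 and a median width of 1030 bp. Those with MyoD had 7.81 and 9.17 and were 1740 bp wide, those with 2 MyoD regions 13.9 and 16.3 and 3989 bp, and the 154 with 3 or more 17.8 and 21.6 and 7250 bp. Within co-occupied pairs the 2 strengths went together only loosely. Spearman's rho between the MyoD and the H3K27ac fold was 0.205 to 0.25 over the 10485 co-occupied regions for the 4 pairs of libraries, against 0.797 between the 2 MyoD controls and 0.926 between the 2 H3K27ac controls. These are correlations across regions of the same libraries, given without a test.

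The share with MyoD also differed by the width of the acetylated region. Of acetylated regions up to 500 bp wide, 16.0% held MyoD, against 27.9% of those of 1001 to 2000 bp and 83.6% of those over 8000 bp. Per Mb of acetylated DNA, however, the numbers ran the other way, with 411 MyoD regions per Mb in the narrowest class, 195 in regions of 1001 to 2000 bp, and 164 in those over 8000 bp. The per-Mb value of narrow regions also counts MyoD regions that only touch the edge. Among regions of 1001 to 2000 bp, those in the lower 2 of the 5 H3K27ac fold classes held MyoD in 19.1% and those in the upper 2 in 31.6%, so the share differed with H3K27ac fold inside a width class too. The ratio of median widths with and without MyoD was 1.69 with both H3K27ac libraries and moved to 3.18 without H3K27ac control 1 and 2.50 without control 2; the direction was the same.

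**Figure D1:**
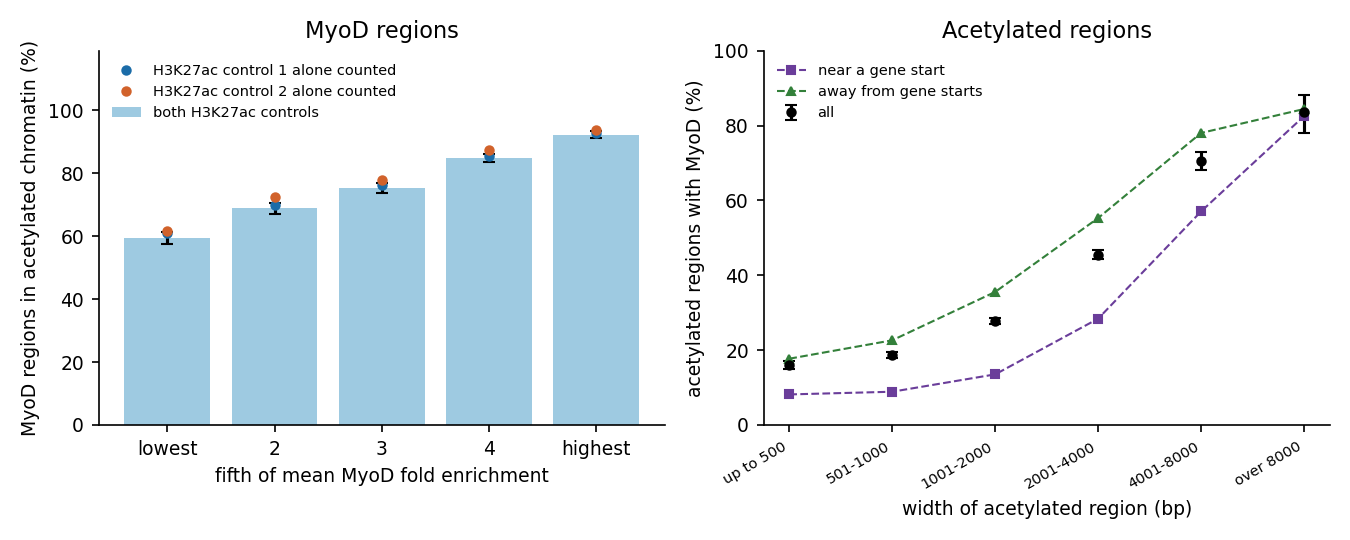
Left, share of MyoD regions that lie in acetylated chromatin (%, y axis) by class of mean MyoD fold enrichment (x axis, 5 equal classes); bars count acetylated regions of both controls with 95% exact binomial intervals, and points count each H3K27ac control library separately. Right, share of acetylated regions with MyoD (%, y axis) by width class (bp, x axis), for all regions (black, with 95% intervals) and for those near and away from gene starts; the bars climb from 59.5% to 92.4%, and the black points from 16.0% to 83.6%.

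Place in the genome separated the antibodies. Among single peaks, 12.6% of MyoD control 1 and 13.0% of MyoD control 2 lay within 1 kb of a gene start, against 26.4% and 23.7% of the H3K27ac controls. The means were 12.8% ± 0.298 (SD, n = 2) and 25.1% ± 1.91 (SD, n = 2). The 2 MyoD libraries were lower than both H3K27ac libraries by 12.3 percentage points on average, and the two-sided exact permutation test gave p = 0.333, the smallest value that 6 assignments of 4 libraries allow, so this test could not reach 0.05. Of the merged regions, 13.1% of MyoD and 31.1% of acetylated regions were near a start. MyoD regions near a start were co-occupied in 87.3% of cases (85.7 to 88.8) and those elsewhere in 74.6% (73.8 to 75.3). The reverse share had the opposite order: 17.9% of acetylated regions near starts held MyoD, against 34.2% of those elsewhere. By gene, 79.9% of MyoD regions overlapping a gene body were co-occupied, 72.9% of those outside genes but within 50 kb of one, and 67.2% of those farther out. On the X chromosome 106 of 143 MyoD regions were co-occupied.

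MyoD summits lay towards the middle of acetylated regions. A summit is the base of a peak with the highest signal, and the 2 MyoD controls put it at a median of 42 bp from each other, within 100 bp in 86.8% of regions. Of the 13755 summits, 67.4% fell inside an acetylated region in each MyoD library. Expressed as distance from the nearer edge over region width, which is 0 at an edge, 0.5 at the centre and 0.25 at the median for an even spread, the median was 0.363 in control 1 and 0.361 in control 2. The central 20% of the region held 38.4% and 38.2% of the summits and the outer 20% held 7.40% and 7.65%, where an even spread puts 20% in each. In base pairs, the median summit was 761.5 and 760.0 bp inside the nearer edge. The shift to the centre was smaller near gene starts, with median values of 0.315 and 0.318, than away from them, with 0.373 and 0.371.

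Around MyoD summits the acetylated share had a shallow minimum at the summit itself. It was 67.4% there in both libraries and rose to 69.7%, averaged over the 2 sides, at 250 bp in control 1 and at 200 bp in control 2. It then fell to 36.1% to 36.3% at 1 kb, to 17.2% to 17.4% at 2 kb and to 10.2% to 10.4% at 5 kb, and was 5.16% to 5.21% at 100 kb. The acetylated surroundings of MyoD were thus local, with most of the fall within 2 kb.

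**Figure D2:**
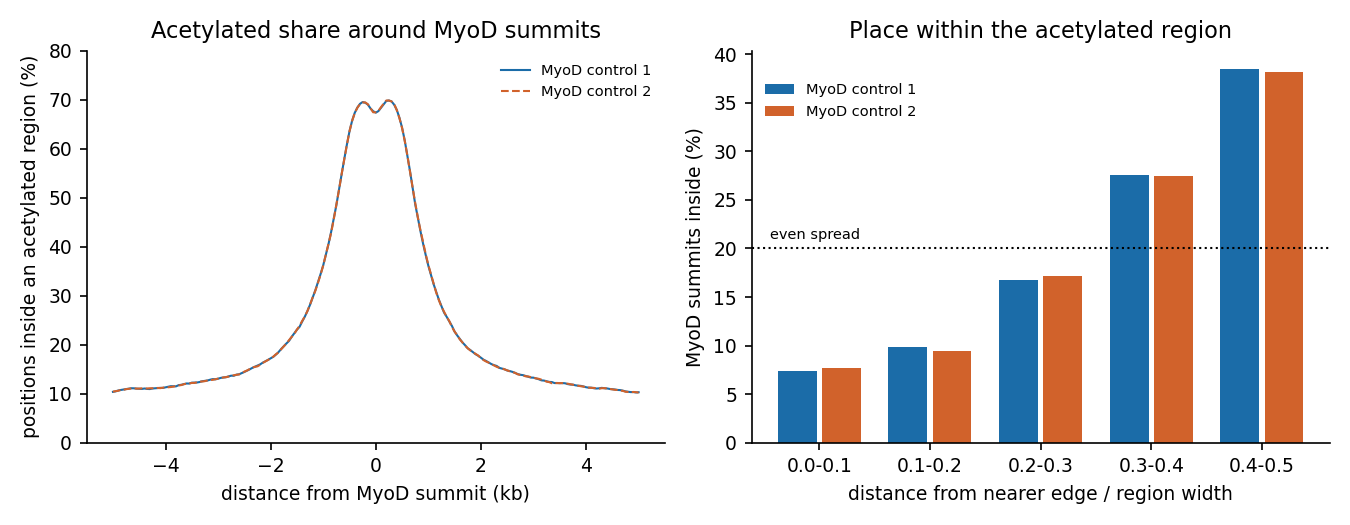
Left, share of positions inside an acetylated region (%, y axis) by distance from the MyoD summit (kb, x axis), 1 line for each MyoD control; both lines dip to 67.4% at the summit between flanks near 69.7%. Right, share of the MyoD summits inside acetylated regions (%, y axis) by distance from the nearer edge as a share of region width (x axis), where 0.5 is the centre and the dotted line marks the 20% of an even spread; 38.4% and 38.2% lie in the class nearest the centre.

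The strongest acetylation sat beside the MyoD summit and seldom on it. H3K27ac summits occurred at 0.25 to 0.258 per kb within 100 bp of a MyoD summit, over the 4 pairs of control libraries, and at 1.16 to 1.2 per kb between 200 and 300 bp. Between 1.5 and 2 kb away the density was 0.0875 to 0.113 per kb. The ratio of the density within 100 bp to that at 200 to 300 bp was 0.212, 0.222, 0.214 and 0.215 for the 4 pairs. Each of the 4 pairs had its highest 50 bp class at 250 to 300 bp, inside the outer band of this ratio. The ratio was not planned before the data were seen. The nearest H3K27ac summit was a median of 346 to 352 bp from the MyoD summit. It lay within 100 bp for 5.09% to 5.23% of MyoD summits, within 500 bp for 65.4% to 65.9% and within 1 kb for 73.9% to 75.4%. A peak has a single summit in these lists, so a region with similar acetylation on its 2 sides shows a summit on 1 of them.

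The dip was deepest at the strongest MyoD peaks. In the lowest of the 5 MyoD fold classes the ratio was 0.387 to 0.423, in the next classes 0.280 to 0.298, 0.219 to 0.246 and 0.142 to 0.163, and in the highest 0.0920 to 0.0992. The ranges of the 4 library pairs did not overlap between neighbouring classes. The pairs combine 2 MyoD and 2 H3K27ac lists over the same regions, so they are not 4 replicates. From the lowest to the highest class the density within 100 bp went from 0.347 to 0.360 per kb to 0.129 to 0.138 per kb, and the density at 200 to 300 bp went from 0.838 to 0.898 per kb to 1.37 to 1.45 per kb. Among co-occupied regions the ratio was 0.206 to 0.215. It was 0.190 to 0.207 for MyoD summits away from gene starts and 0.329 to 0.360 for those within 1 kb of one. Gene starts have a nucleosome-poor stretch of their own: around the 5849 acetylated gene starts without a MyoD peak, the ratio measured in the same way from the start was 0.291 and 0.339 for the 2 H3K27ac controls. A dip of H3K27ac summits was therefore also present at starts without MyoD. Whether the dip at the 1801 MyoD regions near starts belongs to the start or to MyoD cannot be told apart with these lists.

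**Figure D3:**
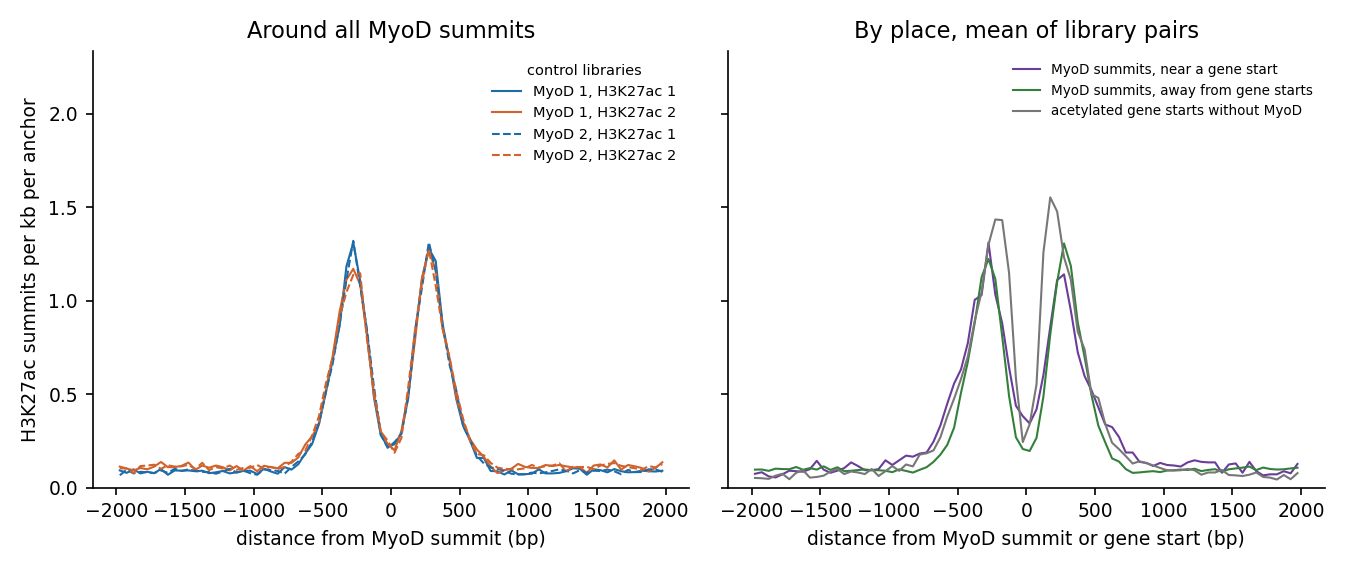
H3K27ac summits per kb and anchor (y axis) by distance from the anchor (bp, x axis, 50 bp classes). Left, around all MyoD summits for each of the 4 pairs of control libraries; right, means over library pairs around MyoD summits near and away from gene starts and around acetylated gene starts without MyoD; every line has flanks on both sides of a dip, and the 4 library pairs reach their highest class at 250 to 300 bp.

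At a smaller number of sites the caller split the acetylation into 2 peaks with MyoD between them. Between 981 and 1105 MyoD summits, or 7.13% to 8.03%, lay outside any H3K27ac peak of the library used but had one within 500 bp on each side. Of these, 902 to 1063 were in regions counted as co-occupied. Rbm24, an RNA-binding protein of muscle differentiation, gives a partial example, with MyoD folds of 26.4 and 26.8 in the gene. H3K27ac control 2 had separate peaks on the 2 sides of the summit of MyoD control 1. The summit of MyoD control 2 fell just inside 1 of these 2 peaks, and H3K27ac control 1 had a continuous peak there. Mamstr, a co-activator of MEF2, had the highest MyoD folds of the listed regulators, 36.0 and 31.8, in a peak over its start region. The nearest summits of H3K27ac controls 1 and 2 were 227 and 232 bp from the summit of MyoD control 1, on the same side; distances for the genes that follow are given in the same way. At Met the strongest of 6 MyoD regions, in the gene body, had folds of 28.7 and 35.4 and H3K27ac summits at 320 and 312 bp. At Tcf12, an E protein that pairs with MyoD, folds were 26.4 and 28.5, and the H3K27ac summits were at 441 and 490 bp. Cdh15, the M-cadherin of satellite cells, stood apart from these with 4 MyoD regions in a single acetylated region of 6333 bp. Its nearest H3K27ac summits were 1950 and 2181 bp from the strongest MyoD summit, whose folds were 30.1 and 25.5.

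**Figure D4:**
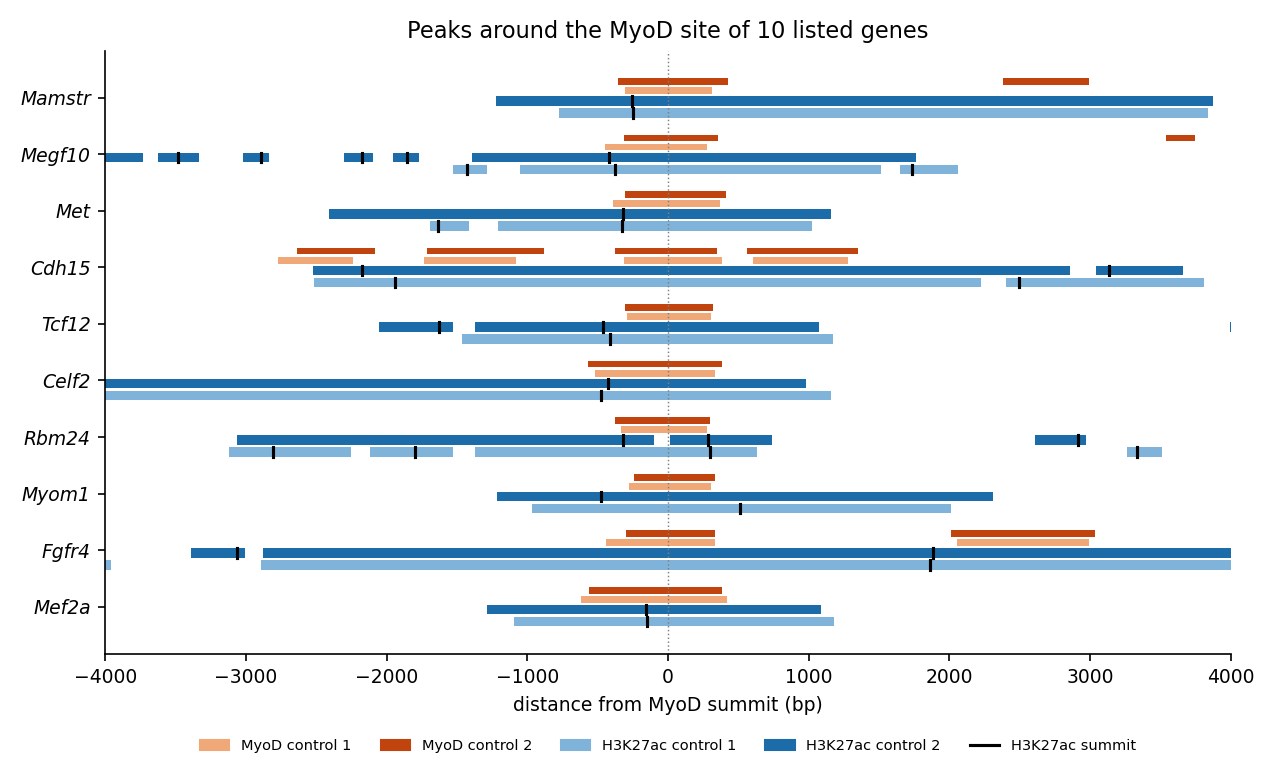
Peaks within 4000 bp of the strongest co-occupied MyoD summit of 10 listed genes (x axis, bp from the midpoint of the summits of the 2 MyoD controls; y axis, genes). Orange bars are MyoD and blue bars H3K27ac peaks of controls 1 (light) and 2 (dark), and black ticks mark H3K27ac summits, which lie beside the dotted line in each row; at Mamstr they are at -248 and -253 bp.

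E-box words set the promoters with MyoD apart from acetylated promoters without MyoD. RefSeq windows of 300 bases (250 before and 50 from the start on) were searched on both strands for CANNTG and, among its members, for CAGCTG, for CAGGTG and for CACGTG. Of 21020 windows, 479 (2.28%) held the MyoD summits of both controls. CAGCTG was in 64.5% of these windows, in 9.64% of the 7893 windows acetylated in both controls but without a MyoD peak of either, and in 15.7% of all windows. CAGGTG was in 39.0%, 12.7% and 19.9%, and any CANNTG in 96.2%, 56.5% and 69.0%. CACGTG, the word bound by MYC and USF proteins, was in 9.39%, 10.2% and 7.91%, a far smaller spread. The first 2 classes had the same median GC content, 62.0%. Within the 479 windows, CAGCTG occurred at 5.60 per kb within 50 bp of the summit of MyoD control 1 and at 1.27 per kb in the rest of the window, and 49.7% of the windows had one within 50 bp. A word match is a description of letters and does not show which word MyoD contacted.

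The co-occupied regions with the highest MyoD folds lay mostly inside genes, as did 59.6% of all MyoD regions. In order of the mean of the 2 controls, the first 10 included those in Olfml2b (chr1:170655336-170656393), Sh3rf3 (chr10:58924536-58926034), Dnah2 (chr11:69459359-69460578), Arhgef2 (chr3:88629879-88630719), Poldip3 (chr15:83126482-83127716), at chr13:37691819-37692655 over 50 kb from any gene, and in Aida, Rps6ka2 and Rhobtb1. Olfml2b, an extracellular matrix gene, had MyoD folds of 48.2 and 46.7 and H3K27ac folds of 16.7 and 21.6 in an acetylated region of 4688 bp, with the H3K27ac summits 313 bp from the MyoD summit in both libraries. At Sh3rf3, a scaffold of JNK signalling, MyoD folds were 37.3 and 54.3 and H3K27ac folds 9.30 and 9.47. Here the H3K27ac summits were only 59 and 13 bp from the MyoD summit, an exception to the usual spacing. Dnah2, an axonemal dynein gene, had folds of 37.5 and 52.3 with H3K27ac at 8.37 and 10.1. Only Arhgef2, Poldip3 and Rhobtb1 of the 10 were counted as near a gene start.

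The 10 strongest MyoD-alone regions mostly had lower folds than these. The highest lay over 50 kb from any gene at chr3:58024531-58025467, with folds of 37.3 and 33.1, and its nearest H3K27ac summits were over 177 kb away. The next was 3446 bp from Cd7, at 29.8 and 31.6, with the nearest H3K27ac summits 925 and 889 bp off. Others were at chr17:16218334-16219158 (28.7 and 28.5) and at chr17:4626072-4626694, where the 2 libraries differed, at 40.9 and 13.6. Further down the order were regions near Mprip, Klhl25 and Lmod3, and in Ranbp10, Ntng2 and Hsdl2. Lmod3 encodes an actin nucleator of the sarcomere, and the MyoD-alone region lay 6564 bp from it, with folds of 18.8 and 21.9. The Ranbp10 region (20.2 and 24.9) was the only one of the 10 near a gene start.

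Most MyoD-alone regions were far from any acetylation. Their median distance to the nearest H3K27ac peak of either control was 14436.5 bp. Of the 2548, 14.6% had such a peak within 1 kb, 32 had one on both sides within 1 kb, 58.4% had none within 10 kb and 21.0% had none within 50 kb. Their summits repeated between the MyoD libraries about as closely as those of co-occupied regions, with medians of 43 and 41 bp. MyoD-alone regions were near a gene start in 7.18% of cases, against 15.0% of the co-occupied.

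Several acetylated regions carried clusters of MyoD. The 5 with the most MyoD regions, of 10 with 5 or more, were led by one of 23572 bp over Iffo1, Gapdh and Ncapd2 (chr6:125145231-125168802) that held 8, with MyoD folds from 6.28 to 30.9 in control 1 and from 5.63 to 32.8 in control 2. Jph2, a junctophilin of the muscle triad, had 6 in a region of 23302 bp, and a region over Myl12b, Myl12a and Myom1 had 6 in 15838 bp. Hspg2, the basement membrane proteoglycan perlecan, and Eif4ebp1, a repressor of cap-dependent translation, each had 5. The summits within the Gapdh region were 934 to 4323 bp apart, and those within the Eif4ebp1 region 609 to 2528 bp.

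At Myod1 itself (chr7:46376474-46379092) MyoD and acetylation coincided over a long upstream stretch. Within 100 kb of the gene there were 13 MyoD regions and 14 acetylated regions, and 12 of the MyoD regions were co-occupied. The acetylated region at chr7:46347757-46354421 held 4 MyoD regions, with H3K27ac folds of 20.1 and 21.9. The strongest of the 4 had MyoD folds of 16.5 and 21.2, 22629 bp from the gene. A second cluster of 3 lay farther out, near Otog, in an acetylated region of 6183 bp (16.5 and 22.2). Over the gene start the MyoD folds were lower, 5.62 and 6.95, and the highest peaks of the 2 H3K27ac libraries in the acetylated region there differed, at 16.0 and 5.88. The single MyoD-alone region of the window was in Kcnc1, a potassium channel gene, with folds of 3.65 and 5.30.

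By gene, the antibodies divided the 21631 genes into 5415 with regions of both (25.0%), 669 with MyoD alone (3.09%), 6384 with H3K27ac alone (29.5%) and 9163 with neither (42.4%). Each region was assigned to the gene body it overlapped, or outside genes to the nearest gene within 50 kb. Any MyoD region was assigned to 28.1% of genes and any acetylated region to 54.5%, and 45.9% of the genes with an acetylated region also had MyoD. In 4933 genes (22.8%) a MyoD region lay inside an acetylated region. For 78 of these the acetylated region had been assigned to a neighbouring gene, so they are counted with MyoD alone. In the same way, a gene counted with neither can have acetylation at its start that was assigned to a neighbour. In 560 genes the 2 antibodies were at separate places. Genes with both had a median of 1 MyoD and 3 acetylated regions, and genes with H3K27ac alone a median of 1 acetylated region, so the genes with both had more acetylated regions. Gse1 led with 24 MyoD regions, 18 of them co-occupied, followed by Msi2 with 18 of 18 and Tln2 with 17 of 18; these 3 were named after their values were seen. At gene starts, 10267 genes (47.5%) had acetylation within 1 kb, 1899 (8.78%) MyoD and 1713 both. The MyoD-alone class was sensitive to the libraries, with 1044 genes without MyoD control 1 and 1015 without MyoD control 2.

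In each muscle list 94.4% to 100% of genes had an assigned acetylated region, against 54.5% of all genes. These lists were also co-occupied far above the 22.8% of all genes. The count was 20 of 24 myogenic regulators, 21 of 24 satellite cell and activation genes, 29 of 32 sarcomere genes, 15 of 19 fusion and neuromuscular junction genes and 14 of 18 excitation-contraction coupling genes (Stac3, the triad adaptor, is counted here though its acetylated region was assigned to a neighbour). AP-1 and immediate early genes had 9 of 12, cell cycle genes 6 of 18 and housekeeping genes 6 of 16. Of the latter 2 lists, 15 of 18 and 15 of 16 had an acetylated region assigned to them. In each list 8 genes had acetylation alone and 7 had both, near the 45.9% with both among all genes with an acetylated region. Pcna and Sdha, named after their values were seen, are counted with neither, though each had acetylation within 1 kb of its start. Marker lists of other cell types had 6 of 10 endothelial, 3 of 10 fibro-adipogenic, 3 of 10 smooth muscle and pericyte, 3 of 10 Schwann and neural and 2 of 10 immune genes co-occupied. Of the endothelial genes 1 of 10 was acetylated at its start. The lists were chosen with results of these data known, and they differ in gene length and number of acetylated regions, whose part in the counts was not tested.

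**Figure D5:**
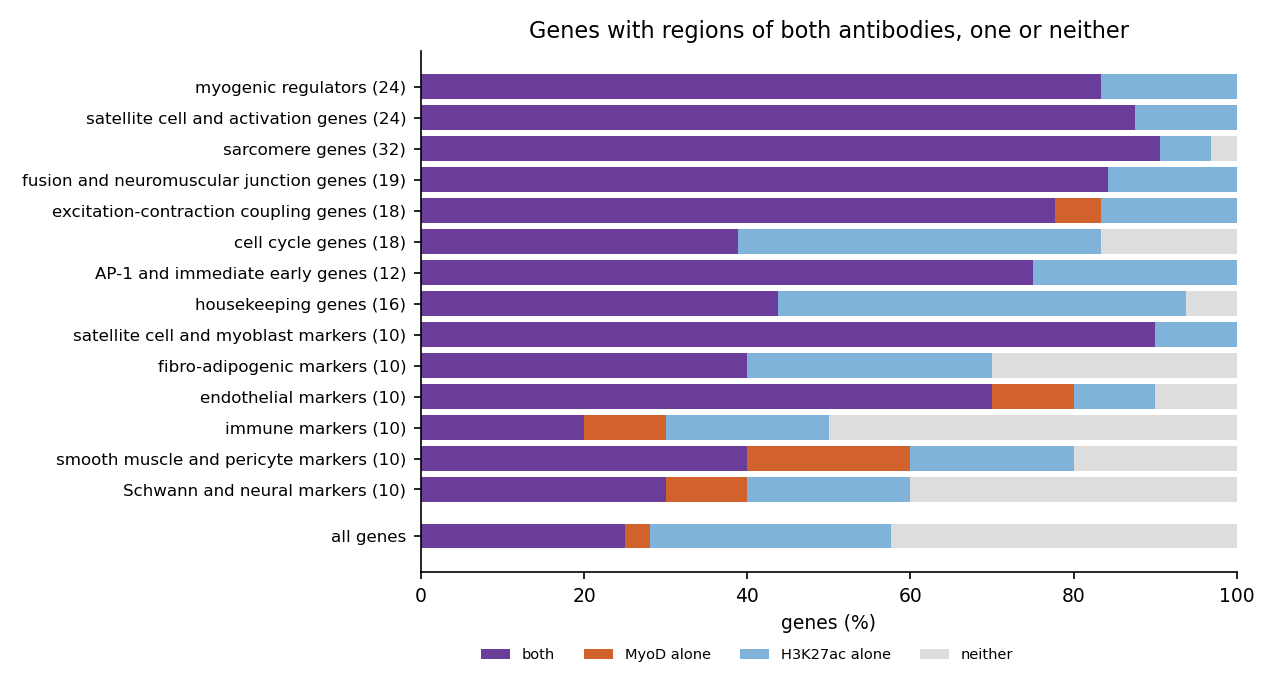
Share of genes (%, x axis) with assigned regions of both antibodies, MyoD alone, H3K27ac alone or neither, for 8 function lists, 6 cell type marker lists (number of genes in brackets) and all 21631 genes (y axis). The 5 muscle lists at the top have both antibodies in most genes, against 25.0% of all genes.

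Of the myogenic regulators, 4 had acetylation at the start but no MyoD region of both controls: Myf5 and Myf6, the other determination factors, Six4 and the E protein gene Tcf3. H3K27ac folds were 12.8 and 11.2 at Myf5, 11.7 and 13.9 at Myf6, 4.15 and 6.51 at Six4, and 13.0 and 19.8 at Tcf3. The E protein genes Tcf4 and Tcf12 had 5 MyoD regions each, of which 5 and 4 were co-occupied, and the strongest Tcf4 region had MyoD folds of 21.1 and 25.5. Id1, Id2 and Id3, whose products block E proteins, had 4, 2 and 4 MyoD regions, all co-occupied, with strongest folds of 10.9 and 14.9, 10.9 and 11.3, and 25.1 and 18.5. Msc, a repressor that competes for E-boxes, was lower, at 7.27 and 8.94. MEF2 genes were also occupied: Mef2a at 19.3 and 27.5, Mef2c at 11.9 and 9.94 and Mef2d at 9.91 and 5.62.

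Among the homeobox and EYA regulators, Eya1 reached 17.8 and 15.2, while Eya4 had 7.60 and 6.95, and Lbx1 6.61 and 6.95. The Pitx3 folds differed between libraries, at 15.2 and 8.13. Celf2, a splicing regulator, had 6 MyoD regions, 5 of them co-occupied, and its strongest stood at 30.1 and 24.5 with H3K27ac at 22.5 and 27.8. The regulators thus ran from folds near 7 to over 30.

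The 4 highest satellite cell genes had MyoD folds over 23, although the median over the list's 72 co-occupied regions (mean of the 2 controls) was 7.61, the lowest of the 5 muscle lists, whose others ran from 8.60 to 10.3. Megf10, a receptor of satellite cell self-renewal, had 4 co-occupied regions of 4, the strongest at 31.1 and 35.4. Met had 6 of 6, Cdh15 4 of 4, and Fgfr4, a fibroblast growth factor receptor, 4 of 4 with folds of 23.8 and 25.2. Genes of the list without a MyoD region of both controls were Cd34, Hey1 and Calcr, the last a receptor of quiescent satellite cells; they were named after their values were seen. Pax7, also named after its values were seen, had 20 acetylated and 5 MyoD regions, of which 4 were co-occupied, the strongest at 9.22 and 10.6.

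Sarcomere genes were bound both at starts and at a distance. Of the 32 genes, 13 had MyoD within 1 kb of a start, or 40.6% against 8.78% of all genes. For genes without a promoter window, more frequent among listed genes than among all genes, either gene end counted as a start. Myom1, a protein of the M-band, had MyoD folds of 24.8 and 24.5 in its gene body, and Tpm2 those given above. Actn3, the α-actinin of fast fibres, had 21.1 and 19.9, and Myl1, an essential myosin light chain, 19.8 and 16.2. Myh4, the myosin of the fastest fibres, had no region of either antibody, and Tnni2 and Tnnc2 of fast troponin had acetylation alone; these 3 were named after their values were seen. Stac3, Jsrp1, Cacna1s and Cacnb1 led the excitation-contraction coupling list, with folds of 19.8 and 14.6, 20.2 and 13.6, 17.5 and 18.5, and 17.2 and 15.2.

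At the neuromuscular junction, MyoD lay near the starts of most acetylcholine receptor genes. Of the fusion and junction list, 11 of 19 had MyoD within 1 kb of a start, or 57.9%. They included Chrna1, Chrnb1, Chrnd and Chrng of the acetylcholine receptor, while the adult subunit gene Chrne had its MyoD region 2747 bp outside the gene; Chrnb1, Chrnd, Chrng and Chrne were named after their values were seen. Besides Chrna1, the strongest were Rapsn, which clusters the receptors, at 19.8 and 23.8, Dok7, an activator of the kinase MuSK, at 20.8 and 18.2, and Mymk, the fusion protein myomaker, at 18.5 and 15.2. The junction genes Agrn and Lrp4, named after their values were seen, had acetylated regions but no MyoD region.

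In the cell cycle list Ccnd3 (19.8 and 18.9), Ccnd1 (19.8 and 12.9), Mcm2 (12.5 and 10.7) and Rb1 (9.58 and 9.60) had the highest MyoD folds in co-occupied regions. Cdkn1a encodes p21, a cyclin-dependent kinase inhibitor that acts in cell cycle exit. It had 6 acetylated regions with folds up to 19.7 and 18.3 and no MyoD region of both controls. Cdkn1a was named after its values were seen. Of the AP-1 and immediate early genes, 2 of 12 (16.7%, against 8.78% of all genes) had MyoD within 1 kb of a start, and 12 of 12 were acetylated there, against 47.5% of all genes. The strongest were Fos, 20297 bp away at 15.5 and 17.6, Jund at 13.9 and 12.9, Atf3 at 11.2 and 12.3, and Junb at 8.59 and 7.62. Of the housekeeping genes Gapdh, Actb and Eef1a1 were among those with the highest MyoD folds, at 8.59 and 8.94, 10.1 and 7.29, and 6.61 and 6.29.

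In all, 5087 genes had an acetylated region and no MyoD peak of either control. The highest H3K27ac folds among them were at Mtss2 (H3K27ac folds 25.8 and 31.1 in a region of 12409 bp), Clk1, a splicing kinase (24.5 and 28.7), Rab11b, of recycling endosomes (26.96 and 25.7), Sirt4 (25.1 and 26.6) and Arrdc3 (25.3 and 26.3). They were followed by Klf7, Rras, Gm45975, Zfp335 and Morf4l1, down to 24.9 and 22.8. Of these 10 regions, 9 were within 1 kb of a gene start, against 36.0% of all acetylated regions without MyoD. The region at Sirt4 was not. These folds were above those at Myog and close to those at Chrna1. Folds of this size were thus found at genes with and without a MyoD peak. The choice was by gene, and overlap of the 10 regions with MyoD regions of neighbouring genes is not given here.

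The knockdown libraries give the one comparison with the rest of the series. With each MyoD list set against the H3K27ac list of its own number, the share of MyoD peaks inside H3K27ac peaks was 69.3% and 70.8% for the control libraries. For the knockdown libraries it was 76.2% and 63.4%. The means were 70.0% ± 1.06 (SD, n = 2) and 69.8% ± 9.07 (SD, n = 2). The knockdown values lay on either side of the controls, the difference of 0.189 percentage points was far inside their spread, and the two-sided exact permutation test gave p = 1, with 0.333 the smallest value it allows. With the H3K27ac lists exchanged, the knockdown values were 62.3% and 77.2%, so the higher value went with H3K27ac knockdown 1, which had 54082 peaks against 39964 in knockdown 2. Without knockdown replicate 1 the difference was 6.60 percentage points and without knockdown replicate 2 it was -6.22. A difference in co-occupancy between control and knockdown cells was not detectable with these libraries.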

How the data were processed

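ChIP-seq peak lists of 2 MyoD and 2 H3K27ac control libraries were analysed, with the 4 knockdown lists for a single comparison. Each list was called separately for its library, and the submitters' processing notes name mm10, MACS2 2.1.1, Bowtie2 2.3.2, bedtools 2.26.0, SAMtools 1.3 and Picard 2.9.2; their options and the input pairing are not stated. The deposited fold enrichment is the authors' linear ratio at a summit. Per peak the deposited files hold −log10 p-value and −log10 q-value, the latter a filter in an alternative, and a score derived from the q-value that was not used. The lists hold no counts, so depth is unknown.

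Peaks on chromosomes 1 to 19 and X were merged (gap 0 bp; 1 shared base counts as overlap) with Python 3.11.15, numpy 2.4.6 and pandas 2.3.3. The fold of a library in a region is its highest peak there. Genes and promoter windows came from RefSeq tables of GRCm38.p6; 140 of 213 list genes had a promoter entry. The planned distance to either gene end was replaced by the distance to the gene start for the 17274 genes with a promoter entry and kept for the other 4357. List genes had an entry less often than all 21631 genes. Shares near a start were therefore not counted alike in the lists and over all genes. Exons and untranslated regions were not used here. The code was tested on simulated regions.

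No test was run over regions or genes. Shares have 95% Clopper-Pearson intervals, and libraries were compared with the exact permutation test over 6 assignments. Genes were named by rule: the regulators, up to 4 genes of each other list with the highest MyoD fold in a co-occupied region, the 10 regions with the highest folds in each class, the 5 acetylated regions with most MyoD, and Myod1; exceptions are marked. Some genes that the rule names are not reported here. The members and lists were chosen with earlier results of these data known. Alternatives were the overlap rule, merge gap, stricter peaks, assignment distance and leaving out each library.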

Additional observations from a re-analysis of the deposited data

Results flagged for a closer look

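Outside the chromosomes analysed, MyoD control 1 had 40 peaks and MyoD control 2 had 41 on the unplaced contig JH584304, where each H3K27ac control had 1. The MyoD knockdown libraries had 43 and 41 and the H3K27ac knockdown libraries 1 and 0. This stood out as signal of a single antibody in sequence that the comparisons leave out. The lists give no value that bears on its source, which was not tested.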

How the results depend on the processing

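The directions reported for regions were the same under every alternative run. With both MyoD summits required inside, the co-occupied share was 65.9% and the share of acetylated regions with MyoD 24.1%; with 50% coverage 69.0% and 26.1%; with a peak of either control library 70.0% and 25.7%. A gap of 500 bp gave 31.5% for the latter. Peaks of −log10 q of at least 5 gave 72.6% co-occupied, a MyoD fold ratio of co-occupied to other regions of 1.25 (from 1.297), a relative position of 0.369, a nearest-summit distance of 378.2 bp (from 349.2) and a summit dip ratio of 0.180 (from 0.216). The ratio of H3K27ac folds with and without MyoD (1.54) became 1.78, 1.69 and 1.36 with both summits inside, 50% coverage and stricter peaks. Relative position was 0.364 with the 500 bp gap, 0.377 with exactly 1 MyoD region, where the dip ratio was 0.257, and 0.374 in regions of at least 1000 bp. Counting gene starts alone left 1713 genes with both and 186 with MyoD alone. The dip ratio and its alternatives were not planned and were chosen after seeing the data.

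Leaving out each library in turn, which admits every peak of the remaining one, gave 68.6% to 78.7% co-occupied, 20.3% to 32.8% of acetylated regions with MyoD, a MyoD fold ratio of 1.29 to 1.38, a width ratio of 1.70 to 3.18, an H3K27ac fold ratio of 1.52 to 1.93, a relative position of 0.348 to 0.359, a summit distance of 346.5 to 381.0 bp, a dip ratio of 0.213 to 0.254, and 502 to 1044 genes with MyoD alone. The control minus knockdown difference ran from -6.22 to 6.60 percentage points, with -0.557 without control replicate 2; the cause was not tested. Of 32 gene class counts, 28 were within 1.5 times of the reported count.

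The labels do not say that a replicate number marks a shared culture or day, and there are only 2 pairs. With a replicate block (a sign-flip test over 4 assignments) the differences were -12.3 percentage points at gene starts (p = 0.5, exact permutation) and 0.189 against the knockdown (p = 1). Same-numbered control and knockdown libraries deviated together with r = 0.104 over 9909 shared MyoD regions and 0.155 over 26113 H3K27ac regions, and MyoD and H3K27ac controls with r = -0.0082. Read depth, 2 libraries per group and peak calls in place of signal limit these values.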
